A study of Mus musculus with 6 samples.

Results

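Autophagy is the process by which a cell wraps part of its own content in a double membrane, the autophagosome, and delivers it to the lysosome for breakdown. A maturing red cell uses it to an unusual degree, because the reticulocyte has to remove its mitochondria, a selective form called mitophagy, in which the outer membrane protein NIX (gene Bnip3l) serves as a receptor. The 43 genes described here cover the steps of this pathway: the ULK1 kinase complex that starts it, the class III PI3K complex, the proteins that supply membrane, the enzymes that attach ATG8 proteins to lipid, the ATG8 proteins (LC3 and GABARAP), cargo receptors, mitophagy receptors, and factors of fusion with the lysosome. They were picked by name for their known function out of 17060 genes listed in the tables, with earlier results of these data known. Each of the 43 was listed in every culture and passed the filter on low counts that left 12306 genes for testing.

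The samples were mouse erythroblast cultures grown from purified lineage-negative bone marrow cells of WT animals under EPO, the hormone that drives red cell formation. The controls received the vehicle DMSO (labelled NC) and the others NUP-17d, a small molecule developed as an inhibitor of pleckstrin-2, in each case for 48 hours. There were 3 cultures per condition, named here by the numbers in their labels. Nothing in the labels says whether the cultures came from separate animals, so p-values measure only the spread between these samples, and the age and sex of the mice are not given in the sources used here. The study's methods name C57BL/6 as the strain of the WT mice in its drug screen and do not repeat a strain for the sequenced cultures.

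The expected counts, the authors' estimated reads per gene, summed to between 20076409 and 20419018 per culture. Hemoglobin transcripts took between 18.3% and 20.3% of the counts with DMSO and between 11.8% and 13.1% with NUP-17d, so the same library total left more reads for the other genes in the treated cultures. Levels are therefore given as CPM, counts scaled to a common library size, with TMM factors that correct for such a difference in composition. Under scaling by library totals alone, the median log2 fold change of all tested genes moved from 0.014 to 0.28. It was still 0.16 when hemoglobin genes were removed before such scaling, so they account for only a part of the difference. The direction of a small change can depend on the choice of scaling. Where it does for a gene named here, this is stated beside the gene.

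Transcripts that mark erythroid cells were abundant, and those of other lineages were present beside them. All 16 erythroid marker genes were lower with NUP-17d (median -0.60 on the log2 scale), at a summed level of 27961 to 30046 CPM with DMSO and 17339 to 18326 CPM with NUP-17d. The 12 neutrophil markers summed to 3993 to 4163 CPM with DMSO and 4068 to 4345 CPM with NUP-17d, and the 12 monocyte and macrophage markers to 2962 to 3210 CPM and 3310 to 3622 CPM. Megakaryocyte markers (10 genes) summed to 556 to 609 CPM and 645 to 673 CPM, stem and progenitor markers (10 genes) to 401 to 403 CPM and 418 to 436 CPM, and mast cell and basophil markers (10 genes, of which Mcpt4 was at 0 in every culture) to 316 to 328 CPM and 292 to 303 CPM. In such bulk samples, fewer cells of a type and less RNA per cell cannot be told apart. The part of these shifts in the values below was not tested.

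With TMM scaling, lower levels outnumbered higher ones among the autophagy genes, a balance that turned round under library totals alone, and the mitophagy receptors Bnip3l and Bnip3 moved in opposite directions under both. Of the 43 genes, 29 (67.4%) passed an adjusted p of 0.05 in edgeR's quasi-likelihood test, 21 of them lower and 8 higher with NUP-17d. Over all 12306 tested genes the share was 35.3%, with 18.9% lower and 16.4% higher. The share of the 43 that rose, 18.6%, was close to that background, and the share that fell was 48.8%. The median log2 fold change was -0.12, against 0.014 over all tested genes, and single genes ranged from -0.64 for Bnip3l to 0.69 for Bnip3. The culture groups did not overlap in 30 of the 43 genes, 21 lower and 9 higher, whereas over all tested genes 23.2% were lower and 22.8% were higher without overlap. With scaling by library totals alone, 8 of the 21 falls (Rb1cc1, Becn1, Atg9a, Atg4a, Gabarapl2, Nbr1, Tax1bp1 and Bnip3l) and all 8 rises (Ulk2, Uvrag, Atg3, Atg7, Map1lc3a, Gabarap, Bnip3 and Tecpr1) were still called in the same direction. Of the other 13 falls, 10 were not called and 3 (Atg13, Map1lc3b and Optn) were called higher. A further 13 genes without a call under TMM were called higher, which made 24 higher and 8 lower, when 68.7% of all tested genes were called higher and 5.34% lower. By class, the calls higher and lower under library totals were 3 and 1 for the ULK1 complex, 4 and 1 for the class III PI3K complex, 2 and 1 for membrane supply, 5 and 1 for conjugation, 3 and 1 for the ATG8 family, 2 and 2 for cargo receptors, 2 and 1 for mitophagy receptors and 3 and 0 for fusion. Relative to the median of all genes, the median of the 43 differed by -0.13 under either scaling. A change of scaling shifts all genes by nearly the same amount, so this gap stays the same by construction and is no separate support.

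**Figure D1:**
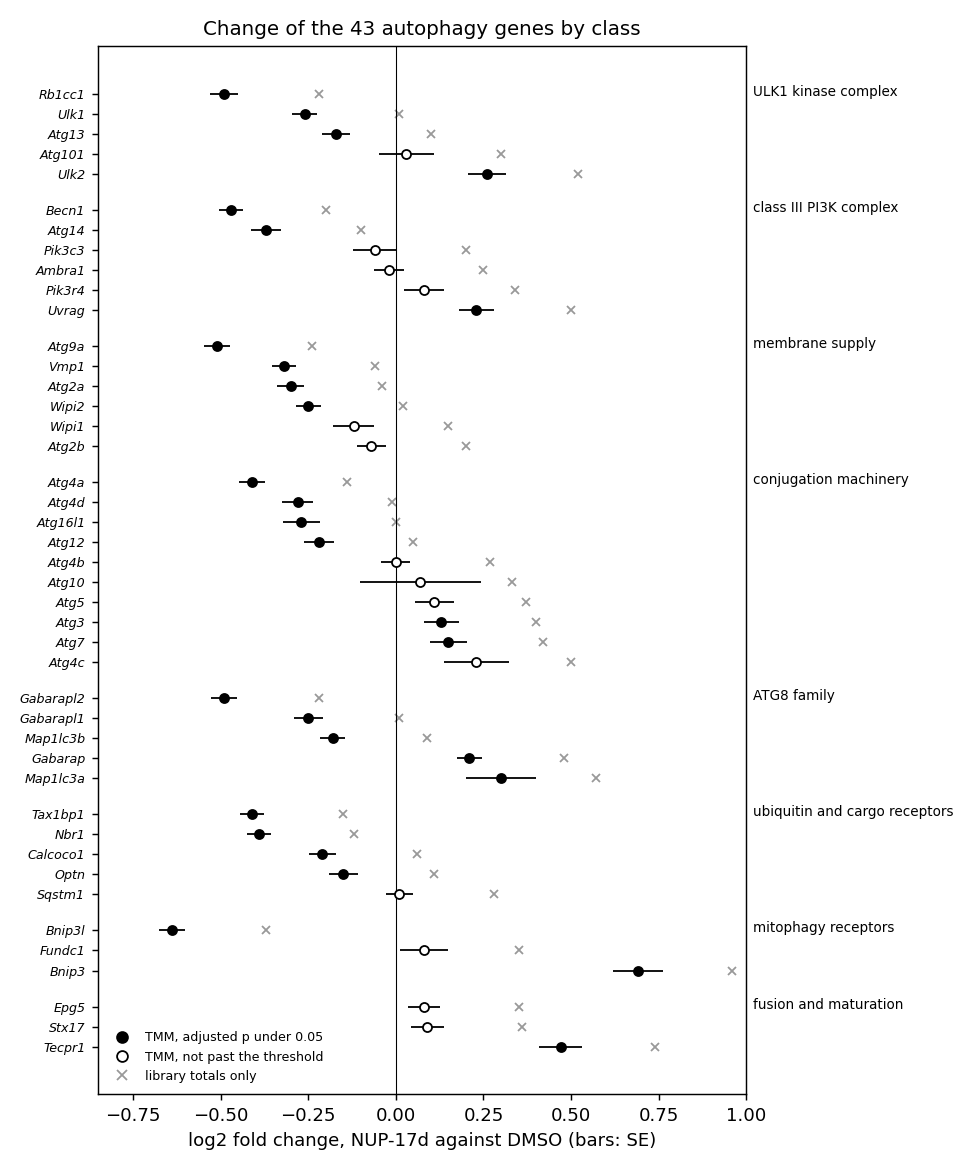
Log2 fold change of the 43 autophagy and mitophagy genes, NUP-17d against DMSO, by class (horizontal axis, bars show the SE from edgeR, n = 3 cultures per group). Filled circles passed an adjusted p of 0.05 with TMM scaling, open circles did not, and crosses give the value with library totals alone. The mitophagy receptors hold both extremes, Bnip3l at -0.64 and Bnip3 at 0.69, and the crosses lie to the right of the circles throughout.

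Bnip3l encodes NIX, the receptor through which reticulocytes pass their mitochondria to the autophagosome, and lies on chromosome 14 (mm10, chr14:66985239-67008877, minus strand). Its level was 609, 565 and 584 CPM in DMSO cultures 1, 2 and 3 and 371, 368 and 391 CPM in NUP-17d cultures 1, 2 and 3. Every treated culture lay below every control, and the fall was 35.8% (-0.64 ± 0.037 (SE) on the log2 scale, edgeR adjusted p = 1.51e-13). The erythroid marker genes had a median of -0.60, which is close to this value. With library totals alone the log2 fold change of Bnip3l was -0.37.

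Bnip3 encodes a related receptor of the outer mitochondrial membrane, known for its induction by low oxygen (chr7:138890836-138909519, minus strand). It was scarce beside Bnip3l, with 14.8, 14.6 and 15.4 CPM in the DMSO cultures and 25.7, 25.0 and 21.5 CPM in the NUP-17d cultures. The groups did not overlap, and the rise of 1.61-fold was the largest among the 43 genes (0.69 ± 0.071 (SE) on the log2 scale, edgeR adjusted p = 1.37e-08). Per length, Bnip3l stood at 178 ± 6.70 and Bnip3 at 8.46 ± 0.225 TMM-scaled FPKM with DMSO (SD, n = 3), and at 115 ± 3.74 and 13.7 ± 1.30 with NUP-17d. The ratio of Bnip3l to Bnip3 counts inside a library, which no scaling can alter, was 41.1, 38.7 and 38.0 in the DMSO cultures and 14.4, 14.7 and 18.2 in the NUP-17d cultures. On the log2 scale the ratio differed by -1.32 between the groups (2-sided exact permutation test, p = 0.1, the smallest that 3 against 3 allows).

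Fundc1, another receptor of the outer membrane, had 19.7, 18.9 and 20.6 CPM with DMSO and 22.8, 20.8 and 19.2 CPM with NUP-17d. These groups overlapped, and the difference did not pass the threshold (0.08 ± 0.068 (SE) on the log2 scale, edgeR adjusted p = 0.374), although with library totals alone it was 0.35 and passed.

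**Figure D2:**
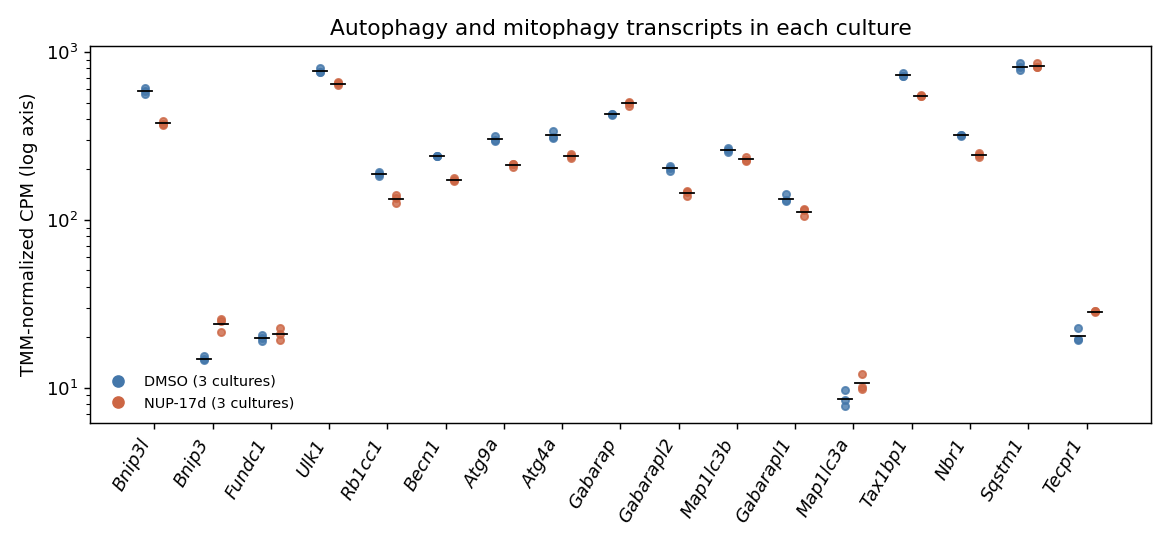
TMM-normalized CPM (log axis) of 17 autophagy and mitophagy genes in each of the 3 DMSO and 3 NUP-17d cultures, with a line at each group mean. Bnip3l falls from a mean of 586 to 376 CPM while Bnip3 rises from 14.9 to 24.1 CPM, and the points of Sqstm1 overlap.

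Autophagy starts with the ULK1 complex, a protein kinase with its partners ATG13, FIP200 (gene Rb1cc1) and ATG101. In this class 3 of 5 genes fell, 1 rose and 1 did not pass the threshold. Ulk1, which encodes the main kinase and is needed for mitochondrial clearance in reticulocytes, had 802, 765 and 760 CPM with DMSO and 662, 635 and 653 CPM with NUP-17d. The groups did not overlap (-0.26 ± 0.035 (SE) on the log2 scale, edgeR adjusted p = 1.63e-06), but with library totals alone the value was 0.01 and was not called. Rb1cc1, the scaffold of the complex, had 193, 187 and 184 CPM with DMSO and 141, 126 and 135 CPM with NUP-17d, and its fall of 28.8% (adjusted p = 1.24e-10) was also called with library totals alone, at -0.22. Ulk2, the sister kinase of ULK1, moved the opposite way. It had 26.1, 25.0 and 23.5 CPM with DMSO and 29.3, 30.0 and 29.8 CPM with NUP-17d (0.26 ± 0.055 (SE) on the log2 scale, edgeR adjusted p = 0.000541). The Ulk1 to Ulk2 count ratio was therefore 30.8, 30.6 and 32.3 in the controls and 22.6, 21.2 and 21.9 in the treated cultures, a log2 difference of -0.51 (2-sided exact permutation test, p = 0.1). Atg13 fell by 0.17 on the log2 scale and was called higher, at 0.10, with library totals alone. Atg101 had a log2 fold change of 0.03 (adjusted p = 0.802) and was called higher, at 0.30, with library totals alone.

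The class III PI3K complex makes the lipid PI3P on the forming membrane. Becn1, the scaffold subunit Beclin 1, was the member of this class with the lowest p, at 241, 241 and 239 CPM with DMSO and 173, 170 and 178 CPM with NUP-17d. These values left a wide gap between the groups (-0.47 ± 0.034 (SE) on the log2 scale, edgeR adjusted p = 1.98e-11). Atg14, the subunit that directs the complex to autophagosomes, fell from 60.2, 57.2 and 58.3 CPM to 45.5, 45.1 and 45.7 CPM (-0.37 on the log2 scale, edgeR adjusted p = 1.03e-07), and was not called with library totals alone (-0.10). Uvrag, which replaces ATG14 in the form of the complex that acts on endosomes, rose from 30.0, 31.8 and 32.7 CPM to 36.9, 35.8 and 38.5 CPM (0.23 on the log2 scale, edgeR adjusted p = 0.000714). The catalytic subunit Pik3c3 (-0.06), its partner kinase Pik3r4 (0.08) and the regulator Ambra1 (-0.02) did not pass the threshold, and with library totals alone they were called higher, at 0.20, 0.34 and 0.25. In this class 2 of 6 genes fell and 1 rose.

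Of the 6 genes that supply membrane, 4 fell (Atg9a, Vmp1, Atg2a and Wipi2) and the other 2 (Atg2b and Wipi1) did not pass the threshold. Atg9a, a lipid scramblase on the vesicles that seed the autophagosome, fell most, from 315, 300 and 295 CPM to 217, 206 and 215 CPM (-0.51 ± 0.036 (SE) on the log2 scale, edgeR adjusted p = 7.84e-12). Exons of Atg9a overlap the antisense gene Ankzf1, whose own count was 12.1% of that of Atg9a with DMSO and which fell by 0.30, and reads of both cannot be told apart if strand was not used in counting. Vmp1, a scramblase of the endoplasmic reticulum, fell from 232, 227 and 227 CPM to 182, 184 and 182 CPM (-0.32 on the log2 scale, edgeR adjusted p = 1.57e-08). Atg2a, a lipid transfer protein that bridges that organelle and the new membrane, fell from 178, 170 and 160 CPM to 139, 135 and 136 CPM (-0.30 on the log2 scale, edgeR adjusted p = 5.45e-07). With library totals alone, neither Vmp1 (-0.06) nor Atg2a (-0.04) was called. Atg2b, the paralog of Atg2a, had 84.2, 86.7 and 83.8 CPM with DMSO and 86.1, 77.8 and 78.9 CPM with NUP-17d, and the groups overlapped (-0.07 on the log2 scale, edgeR adjusted p = 0.213). Atg2b was called higher, at 0.20, with library totals alone. The Atg2a to Atg2b count ratio was 2.11, 1.96 and 1.91 in the controls and 1.62, 1.74 and 1.73 in the treated cultures (log2 difference -0.23, 2-sided exact permutation test, p = 0.1). Of the PI3P binding proteins, Wipi2 fell by 0.25 on the log2 scale, with 0.02 under library totals alone, and Wipi1 had -0.12 (adjusted p = 0.130) and was called higher, at 0.15, under library totals alone. Atg2b passed the threshold, as lower, without NUP-17d culture 1 and Wipi1 without DMSO culture 3.

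The conjugation machinery attaches ATG8 proteins to a membrane lipid. ATG4 proteases trim and release them, ATG7 and ATG3 pass them on, and the ATG12, ATG5 and ATG16L1 complex places them. ATG10 instead passes ATG12 to ATG5. Among these 10 genes 4 fell (Atg4a, Atg4d, Atg12 and Atg16l1), 2 rose (Atg3 and Atg7) and 4 did not pass the threshold. Atg4a was the most abundant of the 4 protease genes and had 337, 310 and 311 CPM with DMSO and 233, 241 and 248 CPM with NUP-17d. The treated cultures lay below the controls without overlap (-0.41 ± 0.038 (SE) on the log2 scale, edgeR adjusted p = 1.89e-09), and the fall was called with library totals alone (-0.14). Atg4d had 57.3, 58.2 and 60 CPM with DMSO and 45.4, 49.0 and 50.3 CPM with NUP-17d (-0.28 on the log2 scale, edgeR adjusted p = 2.06e-05). With library totals alone it was not called (-0.01), and its exons overlap the antisense gene Kri1, whose count was 45.5% of that of Atg4d and whose log2 fold change was 0.05. Per length the proteases ranked Atg4a (144 ± 6.96 TMM-scaled FPKM with DMSO, SD, n = 3), Atg4b (19.7 ± 0.507), Atg4d (19.1 ± 0.462) and Atg4c (3.91 ± 0.432), and the levels of Atg4b and Atg4d lay within their spread of each other. Atg4b had a log2 fold change of 0.00 (adjusted p = 0.994) and Atg4c one of 0.23 (adjusted p = 0.0564), which passed without DMSO culture 3 or NUP-17d culture 3. With library totals alone Atg4b and Atg4c were called higher, at 0.27 and 0.50.

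Atg12, the ubiquitin-like protein joined to ATG5, fell from 69.8, 69.7 and 64.3 CPM to 59.1, 58.2 and 58.1 CPM (-0.22 on the log2 scale, edgeR adjusted p = 0.000207), and had 0.05 with library totals alone. Its partner Atg16l1 fell by 0.27 on the log2 scale and was not called with library totals alone. Atg5 had 0.11 (adjusted p = 0.141) and Atg10, the scarcest of the 43 genes at 1.62 TMM-scaled FPKM over the 6 cultures, had 0.07 (adjusted p = 0.796). With library totals alone Atg5 was called higher, at 0.37, and Atg10 was not called (0.33). The rises of the enzymes Atg3 (0.13, adjusted p = 0.0385) and Atg7 (0.15, adjusted p = 0.0233) each depended on single cultures. Atg3 (DESeq2 adjusted p = 0.163) was no longer called in 5 of the 6 fits without a single culture (DMSO 1 or 2, or any NUP-17d culture), and Atg7 (DESeq2 adjusted p = 0.0972) in 4 of them (DMSO 1 or 3, or NUP-17d 1 or 2).

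The ATG8 proteins coat the autophagosome and bind receptors such as NIX, BNIP3 and SQSTM1. All 5 genes of this family passed the threshold, 2 higher and 3 lower. Gabarap, whose mean over the 6 cultures was the highest of the 43 genes per length (414 TMM-scaled FPKM, with Sqstm1 at 405 and above it in the controls), rose from 431, 420 and 429 CPM to 476, 501 and 507 CPM (0.21 ± 0.035 (SE) on the log2 scale, edgeR adjusted p = 2.18e-05). Gabarapl2, also called GATE-16, fell from 211, 196 and 203 CPM to 139, 149 and 146 CPM (-0.49 ± 0.038 (SE) on the log2 scale, edgeR adjusted p = 4.96e-11). Neither gene had groups that overlapped, and both kept their direction and call with library totals alone, at 0.48 and -0.22. Gabarapl1 fell from 142, 129 and 131 CPM to 106, 115 and 116 CPM (-0.25 on the log2 scale, edgeR adjusted p = 2.79e-05), and had 0.01 with library totals alone.

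Map1lc3b, the main LC3 gene here, fell from 267, 253 and 260 CPM to 228, 226 and 237 CPM (-0.18 on the log2 scale, edgeR adjusted p = 0.000281). With library totals alone it was called higher, at 0.09. Map1lc3a was scarce, with 9.67, 8.43 and 7.79 CPM in the controls and 10.1, 9.77 and 12.1 CPM in the treated cultures (0.30 ± 0.10 (SE) on the log2 scale, edgeR adjusted p = 0.0190). That call was lost without DMSO culture 2 (adjusted p = 0.0645) or 3 (0.120), without NUP-17d culture 3 (0.146), and in DESeq2 (0.0801).

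Within the family the makeup shifted toward Gabarap. Of the summed FPKM of the 5 genes, Gabarap took 46.5% ± 0.597 with DMSO and 55.6% ± 0.136 with NUP-17d, and Gabarapl2 took 25.1% ± 0.255 and 18.4% ± 0.321 (SD, n = 3). The share of Gabarap in every treated culture (55.5% to 55.8%) lay above that in every control (45.8% to 46.9%). Map1lc3b took 18.3% ± 0.0354 and 16.8% ± 0.455, Gabarapl1 took 9.12% ± 0.267 and 7.90% ± 0.145, and Map1lc3a took 0.993% ± 0.0941 and 1.27% ± 0.125. The Gabarapl1 to Gabarapl2 count ratio was 0.674, 0.656 and 0.645 in the controls and 0.764, 0.769 and 0.794 in the treated cultures, a log2 difference of 0.24 (2-sided exact permutation test, p = 0.1). The Map1lc3a to Map1lc3b ratio was 0.0362, 0.0333 and 0.0300 against 0.0445, 0.0432 and 0.0508, a log2 difference of 0.48 (same test, exact p = 0.1). Over the 5 ratios compared, the groups did not overlap in any, and the adjusted p was 0.1 for each. The pairs come from members chosen with earlier results known, and other gene pairs were not compared, so this count has no background. Of all single genes tested, 22.8% were higher and 23.2% were lower without overlap.

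**Figure D3:**
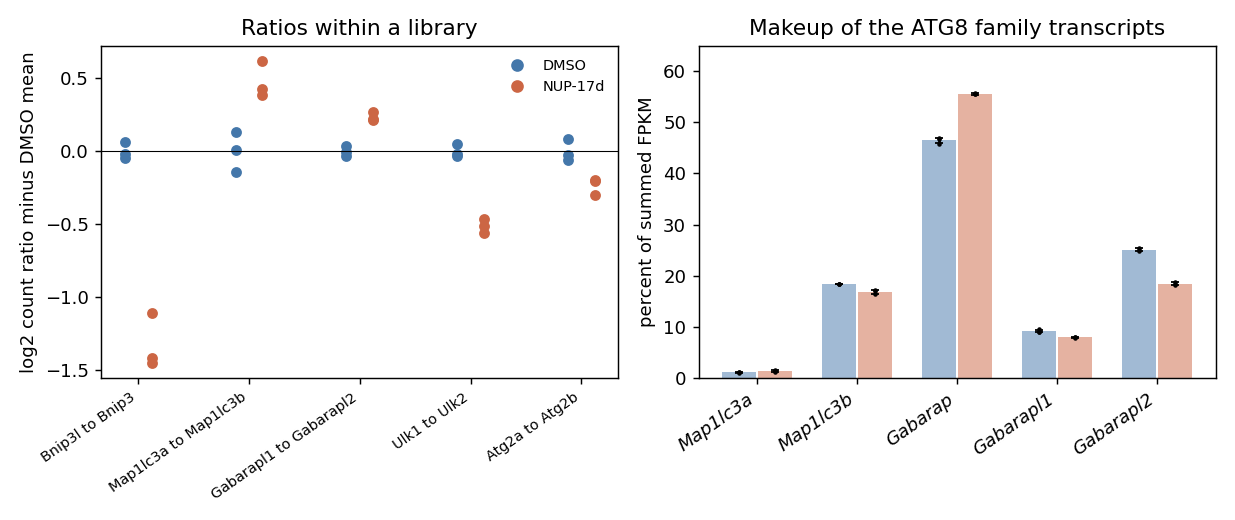
Left, the log2 count ratio of 5 gene pairs within each library, less the mean of the DMSO cultures (points are cultures). Right, the percent of the summed FPKM of the ATG8 family taken by each gene (bars are means, error bars SD, points the 3 cultures per group). The Bnip3l to Bnip3 count ratio is 14.4 to 18.2 in the treated cultures and 38.0 to 41.1 in the controls, and Gabarap takes 46.5% of the family with DMSO and 55.6% with NUP-17d.

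Cargo receptors tie ubiquitin-marked cargo to ATG8 proteins, and 4 of the 5 measured fell. Tax1bp1 fell from 748, 725 and 723 CPM to 557, 545 and 547 CPM (-0.41 ± 0.034 (SE) on the log2 scale, edgeR adjusted p = 1.45e-10). Nbr1 fell from 323, 322 and 316 CPM to 250, 238 and 245 CPM (-0.39 on the log2 scale, edgeR adjusted p = 6.60e-10), and both falls were called with library totals alone (-0.15 and -0.12). Calcoco1 fell from 219, 200 and 205 CPM to 181, 175 and 183 CPM (-0.21 on the log2 scale, edgeR adjusted p = 7.16e-05), with 0.06 under library totals alone. Optn fell by 0.15 on the log2 scale (adjusted p = 0.00486) and was called higher, at 0.11, with library totals alone. Sqstm1, which encodes p62, the best known of these receptors and itself a substrate of autophagy, had 857, 818 and 787 CPM with DMSO and 811, 814 and 861 CPM with NUP-17d. Its groups overlapped, and the log2 fold change was 0.01 (SE 0.038, adjusted p = 0.802), although with library totals alone it was called higher, at 0.28, the same as the median of all genes under that scaling.

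Of the 3 factors of fusion and maturation, 1 rose and the others did not pass the threshold. Tecpr1, which tethers autophagosomes to lysosomes, had 19.2, 22.6 and 19.6 CPM with DMSO and 28.5, 28.7 and 28.1 CPM with NUP-17d. The treated cultures lay above the controls without overlap (1.39-fold, 0.47 ± 0.062 (SE) on the log2 scale, edgeR adjusted p = 7.82e-07). Neither the SNARE gene Stx17 (0.09, adjusted p = 0.121) nor the tether Epg5 (0.08, adjusted p = 0.196) passed, although Epg5 did without DMSO culture 1. With library totals alone Stx17 and Epg5 were called higher, at 0.36 and 0.35.

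With TMM scaling, the abundant genes of the pathway were mostly those that fell. At the median level of the 43 genes, 19.7 TMM-scaled FPKM over the 6 cultures, 21 genes lay above, of which 18 fell and 1, Gabarap, rose. The other 2 were Sqstm1 and Wipi1. Of the 22 at or below it, 3 fell (Atg14, Atg4d and Atg16l1) and 7 rose. Over all tested genes, 40.3% of those above this level fell and 16.2% rose, whereas 11.1% of those at or below it fell and 16.5% rose. With library totals alone, only Rb1cc1, Becn1, Atg9a, Atg4a, Gabarapl2, Nbr1, Tax1bp1 and Bnip3l, 8 genes all above this level, were still called lower. Gabarap, Sqstm1, Wipi1, Atg13, Map1lc3b and Optn, also above it, were called higher. Over all tested genes 5.34% were then called lower and 68.7% higher. The split by level was chosen after the values were seen, and the points share libraries and scaling.

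**Figure D4:**
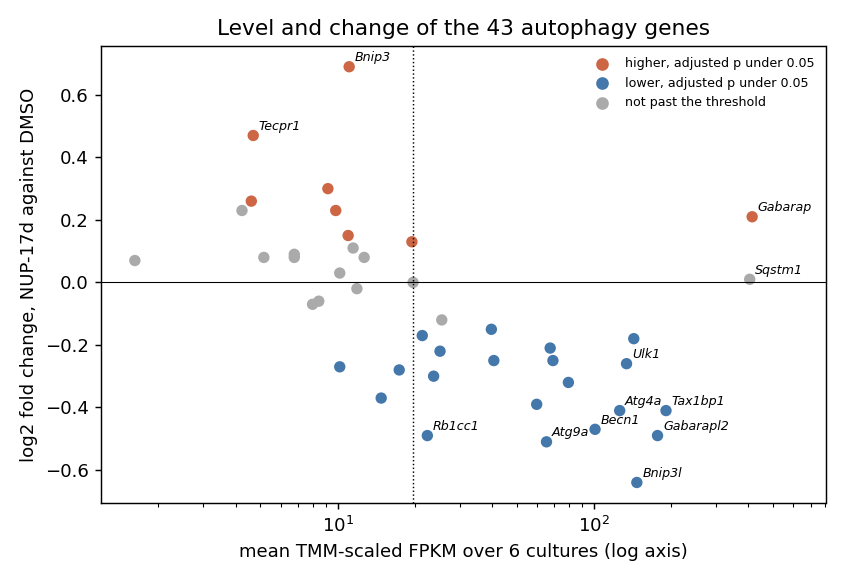
Log2 fold change (NUP-17d against DMSO) of the 43 genes against their mean level in TMM-scaled FPKM over the 6 cultures (log axis). Points are genes, colored by their call in edgeR with TMM scaling, and the dotted line marks the median level of 19.7. Of the 21 genes to its right 18 fell, with Gabarap as the exception that rose.

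A wider set of 51 genes of the same pathway, listed by function, was followed in the same fit. Of the 50 that were tested (Calcoco2, at 0.136 to 0.55 CPM, did not pass the filter), 24 (48.0%) passed the threshold, 13 higher and 11 lower, against 16.4% and 18.9% over all tested genes. Their median log2 fold change was 0.07. With library totals alone 45 were called, 40 higher and 5 lower, when 74.1% of all tested genes were called.

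Genes of tethering and fusion with the lysosome leaned higher, with 8 of 13 higher and 1 lower and a median of 0.17 (13 higher and 0 lower with library totals alone). Lamp1 and Lamp2, the main glycoproteins of the lysosomal membrane, rose from 502, 519 and 499 CPM to 612, 627 and 608 CPM (0.28 on the log2 scale, edgeR adjusted p = 1.84e-07) and from 202, 210 and 218 CPM to 254, 257 and 248 CPM (0.27, adjusted p = 1.01e-06). Vps11, a subunit of the HOPS tethering complex, rose from 47.9, 45.0 and 44.1 CPM to 54.8, 55.4 and 54.4 CPM (0.27, adjusted p = 2.83e-05). The other called rises were Vps18, Snap29, Rab7, Vps33a and Vps41, between 0.15 and 0.24, and Plekhm1 fell (-0.11, adjusted p = 0.0308), with 0.15 under library totals alone. The Plekhm1 call was lost without DMSO culture 2 or 3 or NUP-17d culture 3, and that of Vps41 without DMSO culture 3, and DESeq2 called neither. Beside these, the summed level of the monocyte and macrophage markers was higher in the treated cultures, as given above. Of its 12 genes 4 were higher (Cd68 at 0.30) and 4 lower (Adgre1 at -0.15), with a median of -0.02. Lyz2 alone went from a mean of 2387 CPM with DMSO to 2700 CPM with NUP-17d. Of the 10 megakaryocyte markers 7 were higher and 1 lower, with a median of 0.19. Among the 8 stem and progenitor markers tested, 3 were higher and 0 lower, with a median of 0.13. Neutrophil markers had 2 higher and 2 lower (median -0.02), and mast cell and basophil markers 1 higher and 3 lower (median -0.20). The part of these shifts in the rise of the fusion genes was not tested.

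Among 14 other mitophagy genes 6 fell and the other 8 did not pass the threshold, whereas with library totals alone 10 were called higher and 2 lower (Bcl2l1 and Pink1). Bcl2l1, which encodes the survival protein BCL-XL that keeps maturing erythroblasts alive, fell from 901, 836 and 866 CPM to 548, 539 and 579 CPM (-0.64 on the log2 scale, edgeR adjusted p = 1.83e-13). Pink1, the kinase that marks damaged mitochondria, fell from 281, 249 and 244 CPM to 185, 179 and 195 CPM (-0.47, adjusted p = 2.30e-09). Fkbp8, another receptor of the outer membrane, fell from 297, 269 and 284 CPM to 238, 244 and 257 CPM (-0.20 on the log2 scale, edgeR adjusted p = 0.000170), with 0.07 under library totals alone. The falls of Phb2, Dnm1l and Fis1 were between 0.10 and 0.14 and were called higher with library totals alone, at 0.17, 0.15 and 0.13. Phb2 was no longer called without DMSO culture 2 or 3 or any single NUP-17d culture, Dnm1l without DMSO culture 2 or 3 or NUP-17d culture 3, and Fis1 without DMSO culture 1 or NUP-17d culture 1. DESeq2 called neither Phb2 nor Dnm1l, and Phb2 was also lost with no filter on low counts.

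Of the 9 other cargo receptors tested, 2 fell and 3 rose. Ncoa4, the receptor that delivers ferritin to the lysosome and so frees iron for heme synthesis, fell from 693, 678 and 689 CPM to 506, 514 and 511 CPM (-0.43 on the log2 scale, edgeR adjusted p = 5.11e-11). Sec62, a receptor for the endoplasmic reticulum, fell from 314, 301 and 306 CPM to 220, 217 and 212 CPM (-0.50, adjusted p = 4.44e-12). Tollip rose from 91.6, 87.1 and 79.2 CPM to 110, 109 and 102 CPM (0.32, adjusted p = 3.80e-06), and Retreg1 (0.34) and Tex264 (0.30), both receptors for the endoplasmic reticulum, rose as well. These 5 calls held with library totals alone.

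In the last list, 14 genes of initiation and membrane supply, 2 fell and 2 rose. Wdr45, a PI3P binding protein of the WIPI family, fell from 84.3, 75.0 and 79.1 CPM to 48.7, 51.6 and 54.8 CPM (-0.62 on the log2 scale, edgeR adjusted p = 5.75e-11), and its paralog Wdr45b had 0.09 (adjusted p = 0.231). With library totals alone Wdr45 was still called lower, at -0.35, and Wdr45b was called higher, at 0.36. Trp53inp2, which carries ATG8 proteins out of the nucleus, rose from 47.1, 44.0 and 48.5 CPM to 71.6, 70.9 and 67.9 CPM (0.59, adjusted p = 3.40e-11). Sh3glb1, a membrane-bending partner of Beclin 1, fell from 504, 479 and 480 CPM to 395, 394 and 401 CPM (-0.30 on the log2 scale, edgeR adjusted p = 7.85e-08), with -0.03 and no call under library totals alone, and Rab33b rose by 0.32.

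**Figure D5:**
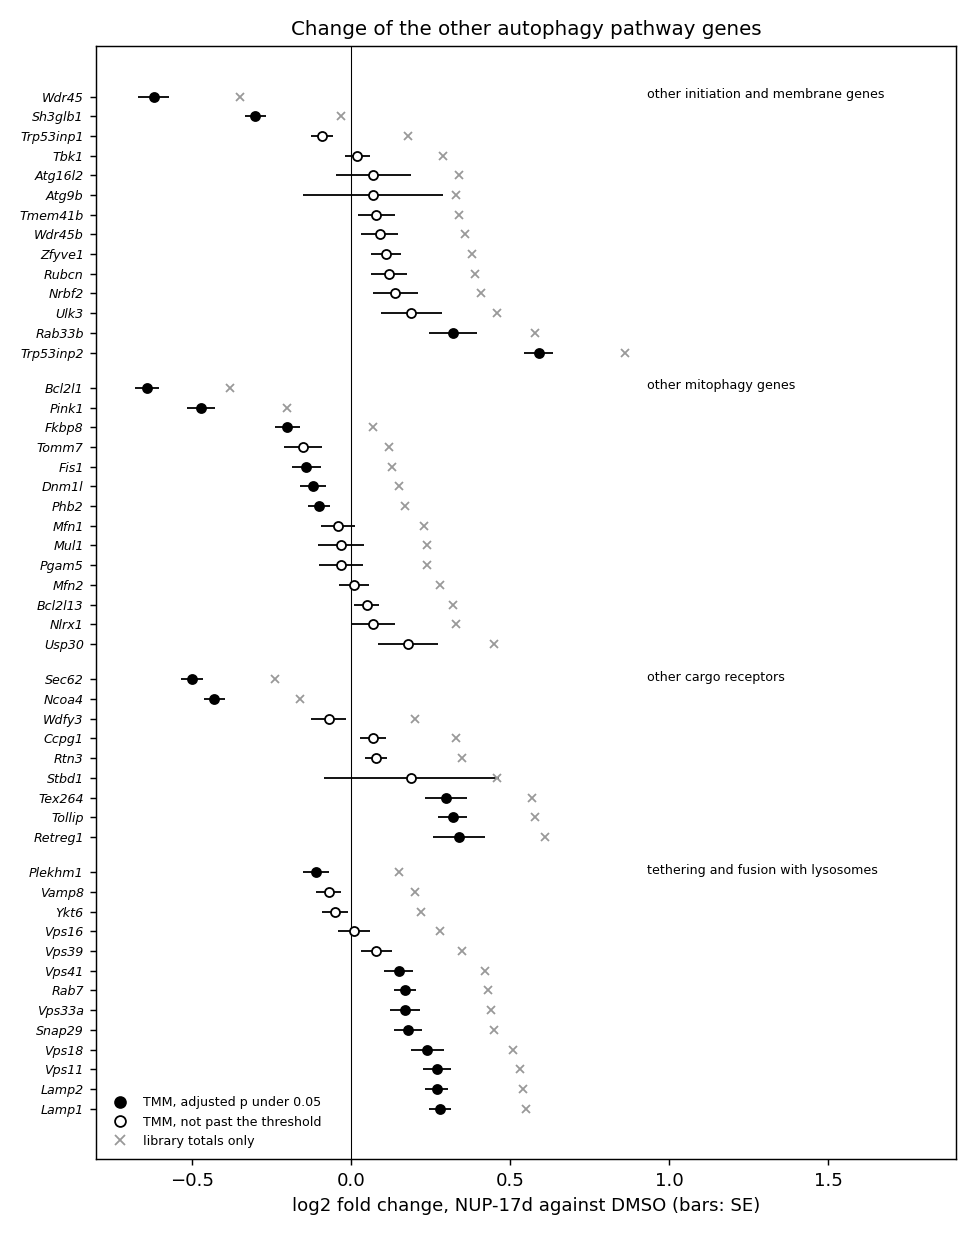
Log2 fold change of the 50 tested other genes of the pathway, NUP-17d against DMSO, by list (horizontal axis, bars show the SE from edgeR, n = 3 cultures per group). Filled circles passed an adjusted p of 0.05 with TMM scaling, open circles did not, and crosses give library totals alone. In the list of tethering and fusion with lysosomes 8 of 13 genes rose, and Wdr45 and Bcl2l1 lie lowest at -0.62 and -0.64.

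Promoter windows, from 250 bases before to 50 after a start site (RefSeq, GRCm38.p6, the same build as mm10), were found for 35 of the 43 genes, all but Atg12, Becn1, Epg5, Bnip3l, Pik3c3, Atg16l1, Map1lc3a and Rb1cc1. They were searched on both strands for CACGTG, the E-box core read by TFEB and related regulators of lysosome and autophagy genes. The search also covered the FoxO motif, spelled GTAAACA. Last came the motif of the erythroid factor GATA1, with the letters AGATAA. An E-box core was found in 5 of the 35 genes (14.3%, against 8.09% of all genes in the table), in Bnip3, Atg3, Atg7, Atg14 and Atg5. Of these genes Bnip3, Atg3 and Atg7 rose, Atg14 fell and Atg5 did not pass the threshold. The rises of Atg3 and Atg7 depended on single cultures and were not called by DESeq2, as given above. The only window of Atg7 (chr6:114670846-114671145, plus strand) lies inside the gene, whose annotated start is at 114643097. That of Atg14 (chr14:47568385-47568684, minus strand) also lies inside its gene, which begins at 47570649. The GATA motif was found in 2 (5.71%, against 12.7%), Atg4a and Atg4d, both of which fell, and the FoxO motif in 0 (against 4.05%). Atg4a has a second window, at the annotated start of the gene (chrX:140956657-140956956), and that window held no motif. A match is a run of letters and not a measured binding site. The letters G and C made up a median of 60% of the windows of the 43 genes, against 52.7% over all windows. The part of this difference in the motif shares was not tested. The 250 bases before the start are shown for 2 E-box genes that rose and the 2 GATA motif genes that fell, on the gene's strand, with the motif in capitals, a choice made after the values were seen. For Bnip3 the motif begins 108 bases before the start (chr7:138909507-138909756, minus strand), for Atg3 there are 2, at 94 and 71 bases (chr16:45158579-45158828, plus strand), for Atg4a it begins at 83 bases (chrX:140953595-140953844, plus strand, the window of 1 of 2 start sites) and for Atg4d at 107 bases (chr9:21265035-21265284, plus strand).
Bnip3: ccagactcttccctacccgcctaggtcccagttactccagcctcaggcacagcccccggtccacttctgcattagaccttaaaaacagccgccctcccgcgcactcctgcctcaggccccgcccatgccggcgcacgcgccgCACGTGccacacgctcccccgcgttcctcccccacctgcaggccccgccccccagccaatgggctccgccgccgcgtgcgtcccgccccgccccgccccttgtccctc
Atg3: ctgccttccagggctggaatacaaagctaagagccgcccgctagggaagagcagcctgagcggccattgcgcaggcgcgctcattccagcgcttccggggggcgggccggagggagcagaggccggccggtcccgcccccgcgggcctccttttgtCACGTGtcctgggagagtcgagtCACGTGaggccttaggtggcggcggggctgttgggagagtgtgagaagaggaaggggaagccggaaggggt
Atg4a: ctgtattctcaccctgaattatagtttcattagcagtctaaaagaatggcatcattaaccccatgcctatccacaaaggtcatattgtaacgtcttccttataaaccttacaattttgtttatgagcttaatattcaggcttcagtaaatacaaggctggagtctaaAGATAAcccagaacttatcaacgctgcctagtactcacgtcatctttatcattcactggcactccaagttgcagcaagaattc
Atg4d: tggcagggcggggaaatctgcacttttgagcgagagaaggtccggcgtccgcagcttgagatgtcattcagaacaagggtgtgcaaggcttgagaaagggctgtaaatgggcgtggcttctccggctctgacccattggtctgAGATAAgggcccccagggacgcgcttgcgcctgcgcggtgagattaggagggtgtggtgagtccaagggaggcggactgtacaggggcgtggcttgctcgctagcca

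The counting itself limits a few of these values. In 11 of the 43 genes a count lay more than 0.005 from a whole number in at least 1 culture, as an estimate gives where reads are divided among genes, and in 6 of them (Becn1, Atg4c, Atg4d, Atg10, Stx17 and Epg5) this held in all 6 cultures. In the GENCODE M21 annotation (mm10), exons of 13 of the 43 genes overlap a gene on the other strand and those of 2 overlap a gene on the same strand.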

How the data were processed

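The authors deposited a table per culture with an expected count, an FPKM value and a length for each gene with reads. Expected counts are the authors' estimated reads per gene, not normalized, and 27.8% to 28.5% of them lay more than 0.005 from a whole number. FPKM values were scaled by the authors for length and library total, with no correction for composition. The submitters' processing notes name mm10. The aligner and counting program are not given in the sources used here. The paper's methods name a stranded kit, whereas the labels describe random priming without naming strand.

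A gene missing from a table was taken as 0. Counts were rounded, filtered with filterByExpr, scaled by TMM and tested with edgeR 4.0.16 (R 4.3.3, quasi-likelihood, all 6 cultures, Benjamini-Hochberg over all tested genes, threshold 0.05). TMM-scaled FPKM is FPKM divided by the TMM factor (0.887 to 0.93 with DMSO, 1.08 to 1.11 with NUP-17d). Alternatives used DESeq2 1.42.0 and limma 3.58.1 on log2(FPKM + 1) or log2(FPKM + 0.1), with FPKM of at least 1 in 3 cultures. Gene lists, the members and the marker lists were chosen with earlier results of these data known. Values per culture are given for the ATG8 family, mitophagy receptors, Ulk1, Sqstm1, the genes of each ratio and up to 3 called genes of lowest p in each other list.

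In simulated data for NUP-17d against DMSO, edgeR recovered 81 of 100 genes changed by 0.3 and 100 of 100 changed by 1 on the log2 scale, with 11 false calls among 12218 genes. Only 200 genes above a minimum count were changed, in random directions. All genes had the same spread beyond counting noise (2.95%, edgeR's common estimate between these cultures), and no shift in composition was built in. The simulation therefore cannot show how calls depend on scaling. The chi-square per degree of freedom between cultures of a condition was 1.84 to 4.59, so no 2 agreed within counting noise.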

Additional observations from a re-analysis of the deposited data

How the results depend on the processing

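With DESeq2, no filter on low counts, hemoglobin genes removed and each culture left out, the 21 falls among the 43 genes kept their call and direction. DESeq2 called 5 higher, without Atg3, Atg7 and Map1lc3a, and of the other pathway genes it lost Phb2, Dnm1l, Plekhm1 and Vps41. Leaving out a culture gave 27 to 29 called in all, 6 to 7 higher and 21 to 22 lower, and for the other pathway genes 20 to 24 called, 12 to 14 higher and 8 to 11 lower. Over all tested genes DESeq2 called 1276 of 12306 higher and 1877 lower. The fits without a culture called 1642 to 1827 higher and 2035 to 2181 lower, of 12415 to 12462 tested. Scaling moved the counts most. Members called higher and lower were 24 and 8 with library totals alone, 25 and 8 with limma on log2(FPKM + 1) and on log2(FPKM + 0.1), 22 and 9 with limma and no filter, and 17 and 15 with totals after removal of hemoglobin genes, a setting chosen after seeing the data. For the other pathway genes the counts called, higher and lower were 45, 40 and 5 with library totals alone and with either limma fit, 41, 36 and 5 with limma and no filter, and 35, 29 and 6 with the totals after removal of hemoglobin genes. All of these but the last carry no correction for composition, and the median log2 fold change of all tested genes was 0.28 with library totals alone, 0.24 and 0.27 with the limma fits, 0.14 without the filter and 0.16 after hemoglobin removal. Calls higher and lower over all genes were 8458 and 657 of 12306 with library totals alone. They were 7951 and 605 of 10615 with limma on log2(FPKM + 1), and 7927 and 605 on log2(FPKM + 0.1). With limma and no filter they were 7997 and 655 of 17060, and after hemoglobin removal 5703 and 1053 of 12283.

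Of the 38 genes with values per culture, 7 changed sign with library totals alone: Ulk1 (0.01), Atg12 (0.05), Atg2b (0.20), Calcoco1 (0.06), Fkbp8 (0.07), Gabarapl1 (0.01) and Map1lc3b (0.09). With limma on log2(FPKM + 1), with or without the filter, the values were 0.02, 0.05, 0.18, 0.06, 0.07, 0.02 and 0.10 in the same order, and on log2(FPKM + 0.1) they were 0.02, 0.05, 0.20, 0.06, 0.07, 0.02 and 0.10. Sign changes of other genes stand beside them in the text above.

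The correlation of same-numbered deviations was 0.00461 to 0.0657, with a mean of 0.0256 against -0.0128 for different numbers. Counting noise enters these correlations, so they cannot show whether a number marks a shared animal or day. With the replicate number as a block, 30 of the 43 genes were called, 9 higher and 21 lower (Atg4c was gained), and 25 of the other pathway genes. Over all 12306 tested genes the block gave 2121 calls higher and 2422 lower, against 2019 and 2327 without it. For the 5 ratios a block, chosen after seeing the data, gives the same differences by construction (exact sign-flip p = 0.25, the smallest that 3 pairs allow), as do FPKM values, which multiply a ratio by a fixed length factor. The 5 ratios kept their direction without each culture, and the within-library ratio Bnip3l to Bnip3 differed by -1.43 to -1.26. With few reads, as for Atg10 (39.2 in the lowest culture), a change is measured least precisely.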
